A study of Xenopus laevis with 8 samples.

Results

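Caps of Xenopus laevis ectoderm that carried chordin and wnt3a messages were compared with uninjected caps. The comparison uses 4 of the 8 arrays of the series, chosen by the treatment on their labels and by no measured value: 2 arrays for the injected group and 2 for the uninjected group, each group numbered replicate 1 and replicate 2. They are written U1 and U2 for uninjected caps and W1 and W2 for caps with chordin and wnt3a. An animal cap is the roof of the blastula, cut away and grown in culture apart from the rest of the embryo. Embryos of the injected group received chordin and wnt3a mRNAs in the animal pole at the 2-cell stage, and their caps were cut at stage 9 and, by the series text, kept to stage 15. The uninjected caps were cut at the same stage, but the text gives the later collection stage only for injected caps and in 1 place speaks of RNA taken after cutting, so their age at collection is not settled here. The other 4 arrays hold caps with chordin mRNA alone and caps with chordin, wnt3a and an lrig3 morpholino, an antisense oligonucleotide against that message. They share the fit as C1, C2, M1 and M2, and the chordin caps serve below for the step that wnt3a adds. The labels name no strain, dose or number of caps per sample and do not say that replicates came from separate batches of embryos, so each p-value reflects the spread among these particular arrays, which may be technical.

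Vertebrate ectoderm becomes epidermis where BMP signalling is high and neural plate where antagonists such as chordin bind BMP ligands outside the cell. The neural crest arises at the border between them, where BMP signalling is intermediate and Wnt and FGF signals are present, and its cells later leave the epithelium and form pigment cells, peripheral neurons and glia and much of the facial skeleton. In a cap left alone the default tissue is larval epidermis with multiciliated cells, ionocytes and secretory cells, whereas a BMP antagonist combined with a Wnt ligand is a standard way to make a cap form neural crest.

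The arrays resembled each other in brightness, with median signals of 95.6 to 114 and 68.6% to 76.0% of probe sets above the brightest of 23 negative control probe sets of the same array, a level of 19.5 to 30.8 that is called background here. Across the probe sets kept for testing, the log2 signals of the 2 uninjected arrays correlated at 0.967 and those of the 2 chordin and wnt3a arrays at 0.951. W1 correlated with U1 and U2 at 0.831 and 0.820, and W2 at 0.743 and 0.764. Uninjected caps carried the epidermal keratin krt70.S at 39684 and 34521 and the epithelial gene epcam.S at 15118 and 15171, and caps with both messages had krt70.S at 34058 and 27756 and epcam.S at 20151 and 19652. The muscle actin actc1.L and the organizer gene gsc.L were below background on both uninjected arrays. Other genes of such tissues were above it, among them the troponin tnni2.S at 677 and 498. Of the lists described below, 13 of 21 mesoderm, muscle and blood symbols were above background on each uninjected array. So were 3 and 4 of 10 organizer symbols and all 6 endoderm symbols. Only symbols with a probe set kept for testing are counted, and the array holds 59 mesoderm, 22 organizer and 22 endoderm symbols. These counts thus partly reflect which symbols were bright enough to be kept.

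Of 22009 probe sets tested in limma, 33.7% were called at an adjusted p under 0.05 between chordin and wnt3a caps and uninjected caps, 4172 higher (19%) and 3244 lower (14.7%). Reduced to 1 probe set for each of 8824 gene symbols, 1855 symbols were higher (21%) and 1409 were lower (16%), with a median log2 change of 0.09 over all symbols. Differences were often large, since 258 probe sets were higher and 217 lower by more than 4 on the log2 scale. The arrays of the 2 groups did not overlap for 3589 symbols that lay higher (40.7%) and 2851 that lay lower (32.3%). A lack of overlap was thus common, and each mention of it below stands beside these shares. The arrays share a scaling to a common mean, and scaling them to the added poly-A control RNAs instead moved the median of all probe sets from 0.11 to 0.82 and the split to 6899 higher and 1079 lower, so that 86.5% of called probe sets were higher in place of 56.3%. Directions below are therefore relative to the mean of each array. The factors of the poly-A scaling were 1.67 for U1, 0.905 for U2, 0.789 for W1 and 0.692 for W2. That scaling thus also moves the 2 uninjected arrays apart, which limits it as a check. Without W2 the counts were 1733 higher and 1194 lower, without U1 they were 2058 and 1100, and without U2 they were 2408 and 1261. Log2 changes are differences of mean log2(signal + 5.22) over 2 arrays a group, which understates the change of dim genes, and are given with the standard error (SE) of the fit. Where both arrays of a group lay below background, the fold is a lower bound set by the background. With 2 arrays in each group an exact permutation test has a smallest p of 0.333, and all p-values here come from the limma fit across all probe sets.

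**Figure D1:**
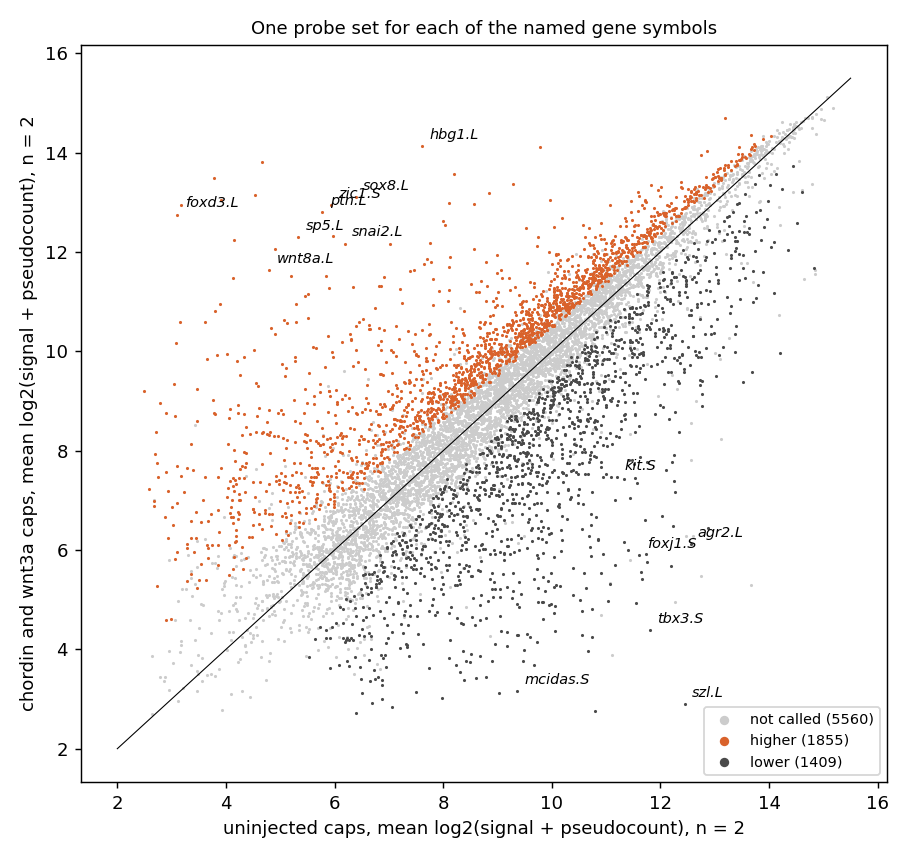
Mean log2(signal + pseudocount) of 8824 gene symbols in uninjected caps (x axis, 2 arrays) and in chordin and wnt3a caps (y axis, 2 arrays), with the line of equal signal. Orange points are the 1855 symbols called higher, dark points the 1409 called lower; foxd3.L, sp5.L and wnt8a.L stand far above the line and szl.L, tbx3.S and agr2.L far below it.

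Setting the same caps against the caps with chordin alone gave far fewer calls, 678 probe sets higher (3.08%) and 602 lower (2.74%), 5.82% in all, or 293 symbols higher (3.32%) and 271 lower (3.07%). With the replicate number as a block these counts were 1079 and 952. They were 255 and 194 without C1, 372 and 198 without C2, 396 and 541 without W1, 270 and 273 without W2, and the lower count was 396 without U1 and 398 without U2. Both comparisons share the chordin and wnt3a arrays. Of the 1855 higher symbols, 220 were also called higher than in chordin caps and 41 were called lower than there, and 1594 were not called. Of the 1409 lower symbols 76 were also lower and 9 higher, and 1324 were not called. Chordin alone, set against uninjected caps, gave calls for 32% of symbols, 19.1% higher and 12.9% lower. It gave the same call for 1247 of the 1855 higher and 845 of the 1409 lower symbols, in comparisons that share the uninjected arrays. A set of 27 symbols (0.306% of all) was called lower with chordin alone and higher with both messages than in uninjected caps. Among them were 5 crest genes and 5 plate border genes of the lists described next. Some, such as the crest gene ednra.S and the posterior gene hoxa2.L, were below background in uninjected and in chordin caps. Their lower call with chordin alone gives no measured difference.

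Both injected genes gave higher signals in injected caps; injected and endogenous message were not told apart. Signals of wnt3a.S were 28.2 and 14.1 in uninjected caps and 10956 and 18771 in chordin and wnt3a caps, at least 468-fold higher (limma adjusted p = 6.86e-05). Signals of chrd.1.S were 1.66 and 1.34 in uninjected caps and 100.4 and 291 in injected caps, at least 5.77-fold higher (limma adjusted p = 0.00157), and 468 and 771 in caps with chordin alone. Neither group overlapped the other for either message, and the stretch of the message that each probe set reads is not known here. The transmembrane gene lrig3, whose S copy was measured, gave 95.6 and 172 in uninjected caps and 741 and 756 in chordin and wnt3a caps (log2 change 2.50 (SE 0.35), limma adjusted p = 0.0037). Both injected arrays exceeded both uninjected arrays, while chordin caps gave 3191 and 2158.

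The calls of each gene list below stand beside 21% higher and 16% lower over all symbols. Those of the step from chordin caps stand beside 3.32% and 3.07%. Of the 26 gene lists, neural crest had the largest median change. Of 27 symbols of the crest list on the array 21 were measured, and 17 were called higher and 2 lower, with a median log2 change of 5.27 beside 0.09 over all symbols. With the 9 symbols that were below background in 1 group set at their lower bounds the median was 4.30. A filter on dim probe sets decides which members are measured, so a crest gene silent in uninjected caps entered because it was bright in an injected group. The same holds for the other lists. Summed over the list, signal was 5751 and 5061 on the uninjected arrays and 60794 and 67268 on the chordin and wnt3a arrays. Whole caps were measured, so fewer cells of a type and less RNA per cell cannot be told apart.

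The transcription factor foxd3, an early crest specifier, was below background in uninjected caps. Its L copy gave 5.06 and 1.97 in uninjected caps and 6763 and 7027 in chordin and wnt3a caps, at least 225-fold higher (limma adjusted p = 0.000107). The S copy gave 20.2 and 16.0 and then 8082 and 10152, at least 296-fold higher (limma adjusted p = 0.000273). Both copies thus went from background to bright signals. The SoxE factors hold crest cells in their multipotent state and later guide glia and cartilage. Signals of sox8.L rose from 100.2 and 61.5 to 8798 and 8854 (log2 change 6.72 (SE 0.31), limma adjusted p = 0.000107), and sox10.L went from 8.68 and 0.530 to 1197 and 1965, at least 50.2-fold (limma adjusted p = 0.000972). The third SoxE gene, sox9, picked after its values were seen, rose from 66.7 and 41.0 to 2821 and 3062 for the L copy (log2 change 5.68 (SE 0.27), limma adjusted p = 0.000115) and from 417 and 198 to 11775 and 12593 for the S copy (log2 change 5.38 (SE 0.37), limma adjusted p = 0.000387). The groups did not overlap for any SoxE copy, and uninjected caps had sox9.S well above background but sox10.L below it.

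Regulators of the passage from epithelium to migrating cells rose as well. The repressor snai2.L gave 64.6 and 71.0 in uninjected caps and 4602 and 4592 in injected caps (log2 change 5.98 (SE 0.19), limma adjusted p = 2.61e-05), and in caps with chordin alone it was at 8.33 and 9.07, below background. The factor twist1.L gave 2.38 and 10.9 and then 598 and 600.5, at least 19.7-fold higher (limma adjusted p = 0.00065). Neither gene's arrays overlapped between the groups, and the 2 injected arrays were nearly equal for both. Against chordin caps the log2 differences were 8.37 (SE 0.19) for snai2.L (limma adjusted p = 1.50e-05) and 5.97 (SE 0.47) for twist1.L (limma adjusted p = 0.000994). Over the list 17 symbols were higher and none lower than in chordin caps.

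Receptors by which crest cells read their surroundings were among the remaining higher members, which were picked after their values were seen. Signals of pdgfra.L, a receptor of platelet-derived growth factor, were 2.69 and 18.11 in uninjected, 6.92 and 0.432 in chordin and 498 and 538 in chordin and wnt3a caps, at least 17.1-fold higher than in uninjected caps (limma adjusted p = 0.00198). Those of the endothelin receptor ednra.S were 23.6 and 22.4, then 0.480 and 4.02, then 273 and 388 in the same order, at least 10.8-fold higher than in uninjected caps (limma adjusted p = 0.00173). Both rose from background levels. The factor tfap2b.L went from 52.3 and 28.2 to 2385 and 2049.8 (log2 change 5.66 (SE 0.44), limma adjusted p = 0.000525) and snai1.S from 431 and 480.2 to 7896 and 10944 (log2 change 4.34 (SE 0.22), limma adjusted p = 0.00014). In chordin caps tfap2b.L was below background at 1.62 and 8.02, whereas snai1.S was 1733 and 2059.7 there and above uninjected caps (limma adjusted p = 0.00171).

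The receptor kit, which pigment cell precursors use, fell in both copies. Signals of kit.S were 2483 and 2235 in uninjected caps and 229.9 and 129 in chordin and wnt3a caps, a fall of 3.73 (SE 0.58) on the log2 scale (limma adjusted p = 0.00548). The L copy fell from 643 and 515 to 18.6 and 12.41, at least 20.5-fold lower (limma adjusted p = 0.00338). Chordin caps also had low signals of both, at 181 and 253 for kit.S and 59.8 and 107 for kit.L. The 2 uncalled list members were the protease gene adam33.L and the pigment enzyme gene tyrp1.L. Their log2 changes were 0.40 (SE 0.24) and -0.53 (SE 0.48), the second of which was 0.20 under spike-in scaling. The list members not described here were all called higher, with log2 changes from 1.27 to 5.59.

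**Figure D2:**
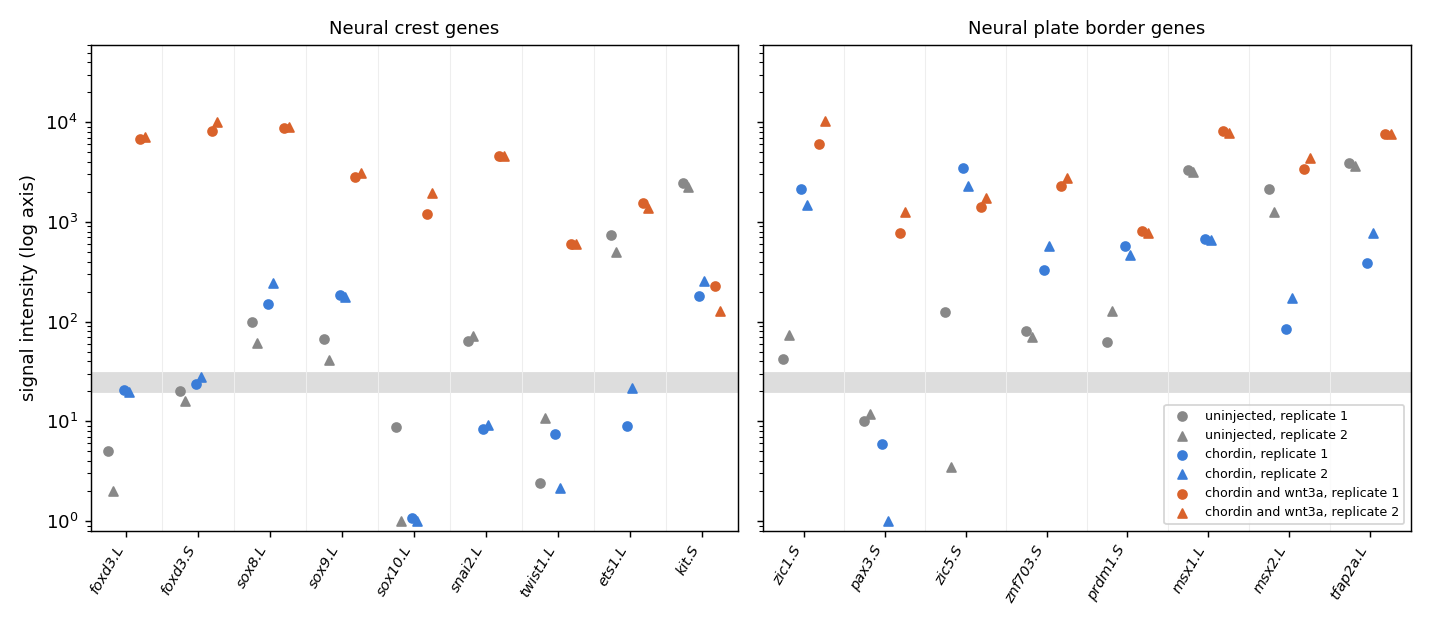
Signal intensity (log axis) of neural crest genes (left) and plate border genes (right) on each array of the uninjected, chordin, and chordin and wnt3a groups; circles are replicate 1, triangles replicate 2, and the grey band is the range of background over the arrays. Signals under 1 are drawn at 1. Both arrays of the chordin and wnt3a group lie above all arrays of the other groups for the foxd3, SoxE, snai2 and twist1 genes, and kit.S is highest in uninjected caps.

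Plate border genes, which act upstream of the crest specifiers, were higher as well. Of 20 measured symbols 16 were called higher and none lower, with a median log2 change of 1.42. The count of higher calls was 9 without W2 and 10 without U2. Signals of zic1.S, a zinc finger factor that with pax3 is known to switch on the crest programme, were 42.6 and 73.1 in uninjected, 2135 and 1484 in chordin and 6114 and 10227 in chordin and wnt3a caps (log2 change against uninjected 7.01 (SE 0.34), limma adjusted p = 0.00014). The 3 groups did not overlap. Its partner pax3.S was below background in uninjected caps at 10.1 and 11.9 and in chordin caps at 5.92 and 0.696, and gave 773 and 1258 with both messages, at least 32.3-fold higher (limma adjusted p = 0.000269). Both injected arrays lay far above the other 4. The probe sets of the L copy disagreed. The brightest, which stands for pax3.L, gave 5633 and 8081 in uninjected, 4197 and 7164 in chordin and 5769.8 and 7734 in chordin and wnt3a caps, which overlap (log2 change against uninjected -0.01 (SE 0.39), limma adjusted p = 0.983). Of the 5 probe sets of pax3.L, 3 were not called and 2 were called higher, 1 of these going from 0.663 and 6.93 in uninjected caps, below background, to 2785 and 3707 with both messages (limma adjusted p = 0.000159). The level of pax3.L in uninjected caps is therefore uncertain.

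The zinc finger genes znf703.S, zic5.S and the repressor prdm1.S also rose. With chordin alone zic5.S was at 3443 and 2301 and prdm1.S at 569 and 465. Against these levels neither was called with both messages (limma adjusted p = 0.82 for zic5.S and 0.524 for prdm1.S). In chordin caps znf703.S was at 330 and 569 and dlx6.L at 770 and 660, and both were called higher with both messages (limma adjusted p = 0.00363 and 0.0245). Signals of znf703.S went from 79.9 and 70.8 to 2272 and 2751 (log2 change 4.96 (SE 0.27), limma adjusted p = 0.00014), those of dlx6.L from 106 and 97.4 to 2083 and 1658 (limma adjusted p = 0.000223), and those of prdm1.S from 61.9 and 126 to 817 and 773 (limma adjusted p = 0.00283). None of these overlapped between groups. Signals of zic5.S were uneven in uninjected caps, 125 and 3.50, against 1416 and 1748 with both messages, and its call (limma adjusted p = 0.0113) ended without W2 (adjusted p = 0.0612). Of the uncalled members, the cofactor gene meis3.S had a log2 change of 0.91 (SE 0.63) (limma adjusted p = 0.303) and dlx5.L one of -0.65 (SE 0.23) (limma adjusted p = 0.0723). With the replicate block meis3.S passed the test (adjusted p = 0.0322), and the log2 change of dlx5.L was 0.09 under spike-in scaling.

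The msx genes, BMP-responsive border factors that also act in epidermis, were lower with chordin alone and exceeded uninjected caps when wnt3a was added. They were picked after their values were seen. Signals of msx1.L were 3312 and 3184 in uninjected, 679 and 659.9 in chordin and 8079 and 7768 in chordin and wnt3a caps, and those of msx2.L were 2114 and 1255 in uninjected, 83.9 and 171 in chordin and 3429.9 and 4356 in chordin and wnt3a caps. No group overlapped another for either gene. Against uninjected caps the log2 changes were 1.29 (SE 0.11) for msx1.L (limma adjusted p = 0.00071) and 1.24 (SE 0.39) for msx2.L (limma adjusted p = 0.047), and the call of msx2.L ended without U1, U2, W1, W2, M1 or M2 or with the replicate block (adjusted p = 0.0551 to 0.211). Against chordin caps the log2 differences were 3.55 (SE 0.11) for msx1.L (limma adjusted p = 3.58e-05) and 4.95 (SE 0.39) for msx2.L (limma adjusted p = 0.00109). In the border list 12 symbols were higher than in chordin caps and none lower, a higher count that was 7 without W2.

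Pan-neural genes were raised in part. Of 29 measured symbols 16 were called higher and none lower, with a median log2 change of 1.36; the lower count was 2 without W2. Signals of zic2.L went from 49.7 and 67.3 to 4592 and 5729.7 (log2 change 6.35 (SE 0.21), limma adjusted p = 3.77e-05), and those of the neural cadherin cdh2.L from 56.9 and 28.6 to 1811 and 2889 (limma adjusted p = 0.000235). The repressor zeb2.S rose from 20.8 and 10.5, below background, to 769.8 and 1135, at least 30.7-fold (limma adjusted p = 0.00019). None of the 3 overlapped between groups, and chordin caps reached like or higher signals, with 7374 and 5485 for zic2.L, 2907 and 3497 for cdh2.L and 2346 and 1686 for zeb2.S. The SoxB1 genes that mark the neural plate, sox2 and sox3, were not called. Signals of sox2.L were 245 and 213 in uninjected, 9627 and 7027 in chordin and 314 and 787 in chordin and wnt3a caps, a log2 change of 1.1 (SE 0.42) against uninjected caps that did not pass the test (limma adjusted p = 0.0821). Those of sox3.S were 933 and 844 in uninjected, 8987 and 8044 in chordin and 391 and 1128 in chordin and wnt3a caps, so that the uninjected values lay between the 2 injected ones. Against chordin caps the log2 difference of sox2.L was -4.03 (SE 0.42) (limma adjusted p = 0.00355). The change of sox3.S against uninjected caps, -0.41 (SE 0.43) (limma adjusted p = 0.496), was 0.32 under spike-in scaling and 0.34 without W1. In the pan-neural list 2 symbols were higher and 8 lower than in chordin caps, the lower count being 3 without C1 and 5 without C2.

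Neuronal genes were called higher more often than lower, as were all symbols (21% higher and 16% lower). Of 17 measured symbols 6 were higher and 2 lower, and the higher count was 3 without W1, W2 or U1. Signals of ebf2.S, a helix-loop-helix factor of differentiating neurons, went from 11.4 and 14.3 to 187 and 252, at least 7.26-fold (limma adjusted p = 0.00187), and those of the neuronal tubulin tubb3.L from 10.8 and 17.7 to 171 and 216, at least 6.44-fold (limma adjusted p = 0.00503). Neither overlapped between groups. The L copy of ebf2 was dim and not called, at 12.6 and 13.2 in uninjected caps and 25.9 and 30.1 with both messages (limma adjusted p = 0.336). The synaptic vesicle gene syt1.L was bright in uninjected caps, 10620.1 and 10621, and fell to 2709 and 623 (limma adjusted p = 0.0172). That call ended without U1, U2 or W2 (adjusted p = 0.0506 to 0.0802), and the lower count was 0 without U1 or U2 and 1 without W2. Placode genes split, with 4 of 11 higher and 3 lower (21% and 16% of all symbols) and a median of -0.26, which was 0.26 under spike-in scaling. Signals of sox11.S rose from 186 and 243 to 2993 and 4178 (limma adjusted p = 0.000159) and those of irx1.L from 52.98 and 50.5 to 679.9 and 992 (limma adjusted p = 0.00117). The homeobox gene dlx3, needed at the outer edge of the plate, fell in both copies, from 7906 and 8371 to 2374 and 1808 for dlx3.L (limma adjusted p = 0.00656) and from 10618 and 9430.4 to 2299 and 1602 for dlx3.S (limma adjusted p = 0.00643). Their groups did not overlap. The higher count was 2 without W2 or U1.

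Along the axis, few forebrain genes were called against uninjected caps. Part of the forebrain and cement gland list could not be compared. Of its 24 measured symbols 12 and 14 were above background on U1 and U2, and 12 and 8 on W1 and W2. Members below background in both groups give no measured difference, in the counts or in the median. Of 24 measured forebrain and cement gland symbols 1 was higher and 3 were lower than in uninjected caps, and the lower count was 1 without W2, U1 or U2 and 5 without W1 or with the replicate block. Signals of otx2.L were 164 and 305 in uninjected, 4933 and 5992 in chordin and 27.6 and 114 in chordin and wnt3a caps, and those of hesx1.L were 81.7 and 43.2 in uninjected, 6421 and 3599 in chordin and 25.3 and 1.48 in chordin and wnt3a caps. Both injected arrays lay below both uninjected arrays, but neither gene passed the test against uninjected caps (limma adjusted p = 0.146 for otx2.L and adjusted p = 0.0601 for hesx1.L). With the replicate block both did (adjusted p = 0.0369 for otx2.L and 0.00667 for hesx1.L). Against chordin caps the log2 differences were -6.45 (SE 0.88) for otx2.L (limma adjusted p = 0.00968) and -8.39 (SE 0.74) for hesx1.L (limma adjusted p = 0.00189). In all 22 of the 24 were lower than in chordin caps and none higher. The array holds 34 symbols of this list. Members silent in the other groups passed the filter on dim probe sets only through the chordin arrays. The count of lower symbols in this step thus partly reflects that filter. The list's median against uninjected caps, -0.34, was 0.10 under spike-in scaling.

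The 3 lower members were not forebrain regulators. The secreted protein gene agr2, a product of the cement gland, fell in both copies. Signals of agr2.L were 6433 and 5608 in uninjected caps and 105 and 38.7 with both messages (log2 change -6.43 (SE 1.25), limma adjusted p = 0.0109), and those of agr2.S were 10856 and 5223 and then 262 and 22.9 (limma adjusted p = 0.0149). The calls ended without U1, U2 or W2 or under spike-in scaling for both (adjusted p = 0.053 to 0.083). The third was tll1.S, whose metalloprotease cleaves chordin and which fell from 1497 and 1420.3 to 37.0 and 18.5 (log2 change -5.53 (SE 0.53), limma adjusted p = 0.00126), with no overlap. The forebrain gene emx2.L was the 1 higher member, 13.8 and 28.3 against 254 and 172 (limma adjusted p = 0.013), and its call ended without U1, W1 or W2 (adjusted p = 0.0508 to 0.076). The higher count was 0 without W1, W2 or U1 and 2 under spike-in scaling.

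Hindbrain genes were among those that rose. Of 27 posterior symbols on the array 20 were measured, and 7 of these were higher and none lower. The median log2 change was 2.33, or 1.70 with 11 symbols at their bounds. Members silent in uninjected caps passed the filter on dim probe sets only where another group was bright, so the count and median partly reflect that filter. Signals of hoxb2.S were 10.1 and 9.21 in uninjected caps and 1744 and 2223 in chordin and wnt3a caps, at least 64.4-fold higher (limma adjusted p = 6.71e-05). The L copy of hoxa2 went from 20.2 and 18.4 to 477 and 447, at least 15.24-fold (limma adjusted p = 0.00118), and the secreted factor gene pnhd.L from 15.4 and 10.2 to 4737 and 4882, at least 157-fold (limma adjusted p = 2.61e-05). All 3 were below background in uninjected caps and the 2 injected arrays lay close to each other. Trunk and tail genes differed between the injected arrays. Signals of cdx4.L were 18.8 and 2.57 and then 1068 and 169, and those of cdx1.S were 0.714 and 1.62 and then 966 and 11.9, so that only replicate 1 had cdx1.S above background. The first was called, at least 14.1-fold higher (limma adjusted p = 0.0367), and the second was not (limma adjusted p = 0.256). The call of cdx4.L ended without U1, U2, W1, W2, C1 or C2 or under spike-in scaling (adjusted p = 0.054 to 0.163).

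Later Hox genes, picked after their values were seen, were not alike in this. Signals of hoxb4.S went from 7.47 and 18.8 to 214 and 105, at least 5.08-fold higher (limma adjusted p = 0.0328), a call that ended without U1, U2, W1, W2, C1 or C2 (adjusted p = 0.051 to 0.151). The injected arrays were close for hoxb7.S, at 62.3 and 59.2 against 10.3 and 13.1 in uninjected caps, and it was not called (limma adjusted p = 0.229). Its signals on M1 and M2 were 607 and 31.2, a spread that entered its test. In 3 others the injected arrays differed. Signals of hoxc8.S were 34.7 and 28.6 in uninjected caps and 191 and 17.3 in injected caps, those of hoxa7.L were 16.8 and 29.3 and then 279 and 41.3, and those of hoxd10.L were 14.3 and 13.5 and then 92.3 and 6.16. In each case W1 stood above the uninjected arrays, while W2 was below background for hoxc8.S and hoxd10.L and gives no measured difference there. None was called, with adjusted p in limma of 0.782 for hoxc8.S, 0.455 for hoxa7.L and 0.692 for hoxd10.L. The mesodermal factor tbxt.S went from 31.6 and 26.0 to 312 and 131 and was likewise not called (limma adjusted p = 0.119), with both injected arrays above the uninjected ones. On M1 and M2 tbxt.S was at 2152 and 144, a spread that entered its test too. On the chordin and wnt3a arrays 19 and 14 of the 20 posterior symbols were above background. The list's higher count was 4 without W2 and 11 without M1 or M2.

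**Figure D3:**
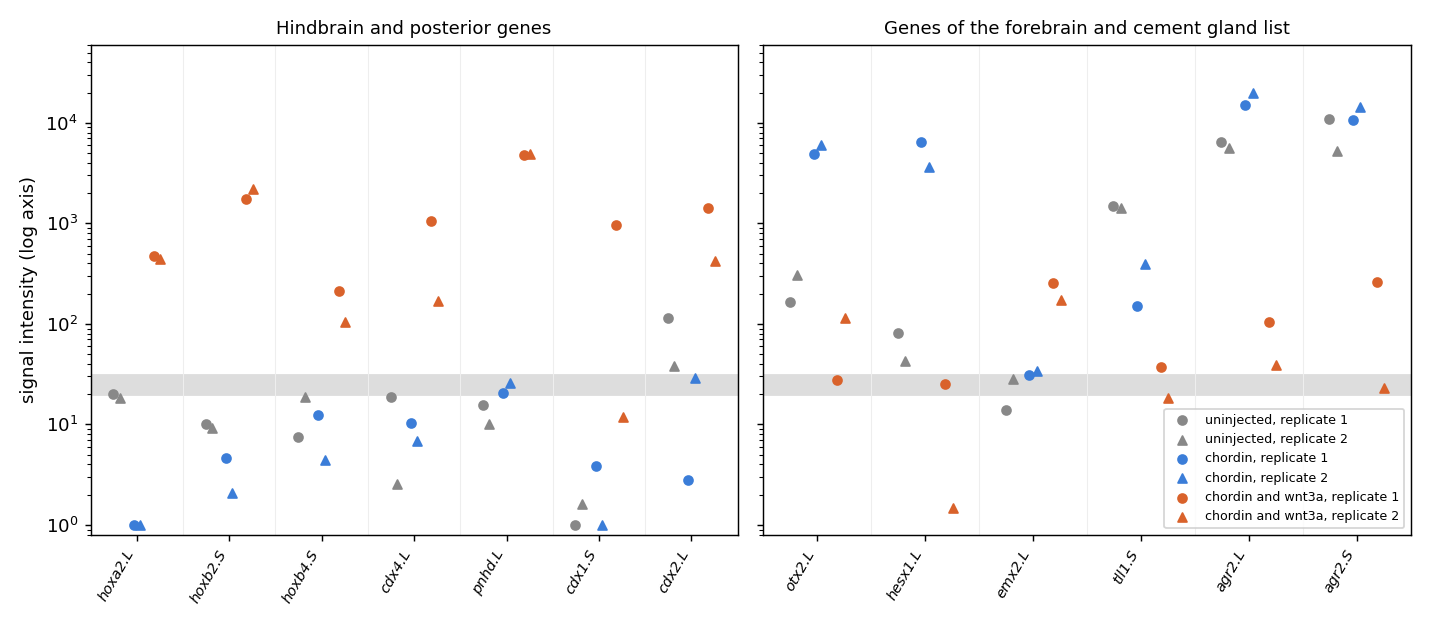
Signal intensity (log axis) of hindbrain and posterior genes (left) and of forebrain and cement gland genes (right) on each array of 3 groups, with circles for replicate 1, triangles for replicate 2 and a grey band for the range of background. The genes hoxa2.L, hoxb2.S and pnhd.L are highest with both messages, cdx1.S on replicate 1 of that group, and otx2.L and hesx1.L are highest with chordin alone.

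Genes of multiciliated cells, which beat mucus along the larval skin, fell. Of 42 measured symbols 41 were called lower and none higher, with a median log2 change of -3.93. The summed signal of the list was 103349.6 and 106121 in uninjected caps and 22084 and 20303 in chordin and wnt3a caps. The lower count was 21 without W2, 24 without U2 and 26 without U1 or under spike-in scaling. Signals of mcidas.S, which starts the multiciliated programme, were 794 and 536 and then 4.21 and 3.25, below background and at least 23.3-fold lower (limma adjusted p = 0.00524). Signals of ccno.S, needed for centriole amplification, fell from 1632 and 1758 to 37.0 and 3.24 (limma adjusted p = 0.00543), and those of foxj1.S, which drives genes of motile cilia, from 3246 and 3012 to 98.7 and 29.2 (limma adjusted p = 0.00581). No injected array came near an uninjected one. Genes of the axoneme followed, with spag6.L falling from 1880.3 and 2448 to 51.6 and 23.1 (limma adjusted p = 0.0121) and tekt2.S from 2849 and 3164 to 50.6 and 11.3 (limma adjusted p = 0.0318). The calls of these last 2 ended without U1, U2 or W2 or under spike-in scaling for both (adjusted p = 0.0591 to 0.148) and without W1 for tekt2.S (adjusted p = 0.0593). With chordin alone 36 of the 42 symbols were already lower than in uninjected caps (12.9% of all symbols), with a median log2 change of -3.55, a count that was 11 without U1, 12 without C1, 16 without U2 and 22 under spike-in scaling. Both comparisons share the uninjected arrays. In the step from chordin caps 1 of 42 was lower (3.07% of all symbols) and none higher, with a median of -0.34. That 1 symbol was foxn4.S, another regulator of this lineage, which was picked after its values were seen and was at 984 and 1126 in uninjected, 1343 and 1678 in chordin and 38.3 and 28.3 in chordin and wnt3a caps (limma adjusted p = 0.00125 against chordin caps).

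Ionocyte and secretory cell genes were lower too but less evenly. Of 20 measured ionocyte symbols 13 were lower and none higher, with a median log2 change of -3.17, and the count was 1 without U2, 2 under spike-in scaling, 3 without U1, 4 without W2 and 7 without W1. Signals of the carbonic anhydrase gene ca12.L fell from 3560.1 and 2903 to 74.1 and 18.08 (log2 change -6.23 (SE 1.61), limma adjusted p = 0.0266), and those of the proton pump subunit gene atp6v1b1.L from 3924 and 5577 to 157 and 11.1 (limma adjusted p = 0.0393). The groups did not overlap, yet the calls ended without U1, U2 or W2 or under spike-in scaling for both (adjusted p = 0.0979 to 0.19) and without C1 or C2 or with the replicate block for atp6v1b1.L (adjusted p = 0.0628 to 0.0685). The lineage regulator foxi1.L was 6511 and 5845 in uninjected caps and 367 and 11.1 in injected caps, a log2 change of -6.31 (SE 2.50) that did not pass the test (limma adjusted p = 0.0947). W1 was far above background and W2 below it. On M1 and M2 foxi1.L was at 3.98 and 1507, a spread that entered its test too. Ionocyte symbols above background numbered 20 and 10 of 20 on the 2 chordin and wnt3a arrays, and all 20 on both uninjected arrays.

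Of 5 measured secretory cell symbols 3 were lower and none higher, a count that was 1 without U1. The factor foxa1.S, which marks small secretory cells, fell from 476 and 353 to 53.1 and 14.8 (log2 change -3.60 (SE 0.54), limma adjusted p = 0.00454), and the hyaluronan synthase gene has1.S from 26547 and 20595 to 9634 and 3916 (limma adjusted p = 0.0113), whose call ended without U1 (adjusted p = 0.0693). The goblet cell lectin itln1.L was 33089.6 and 26296 in uninjected caps and 16683 and 601 in injected caps and was not called (limma adjusted p = 0.105). W1 thus kept a far higher lectin signal than W2. The list's summed signal was 26475 and 4605 on these 2 arrays against 60899.6 and 47698 on the uninjected ones. The part of these cells in other differences between W1 and W2 was not tested.

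**Figure D4:**
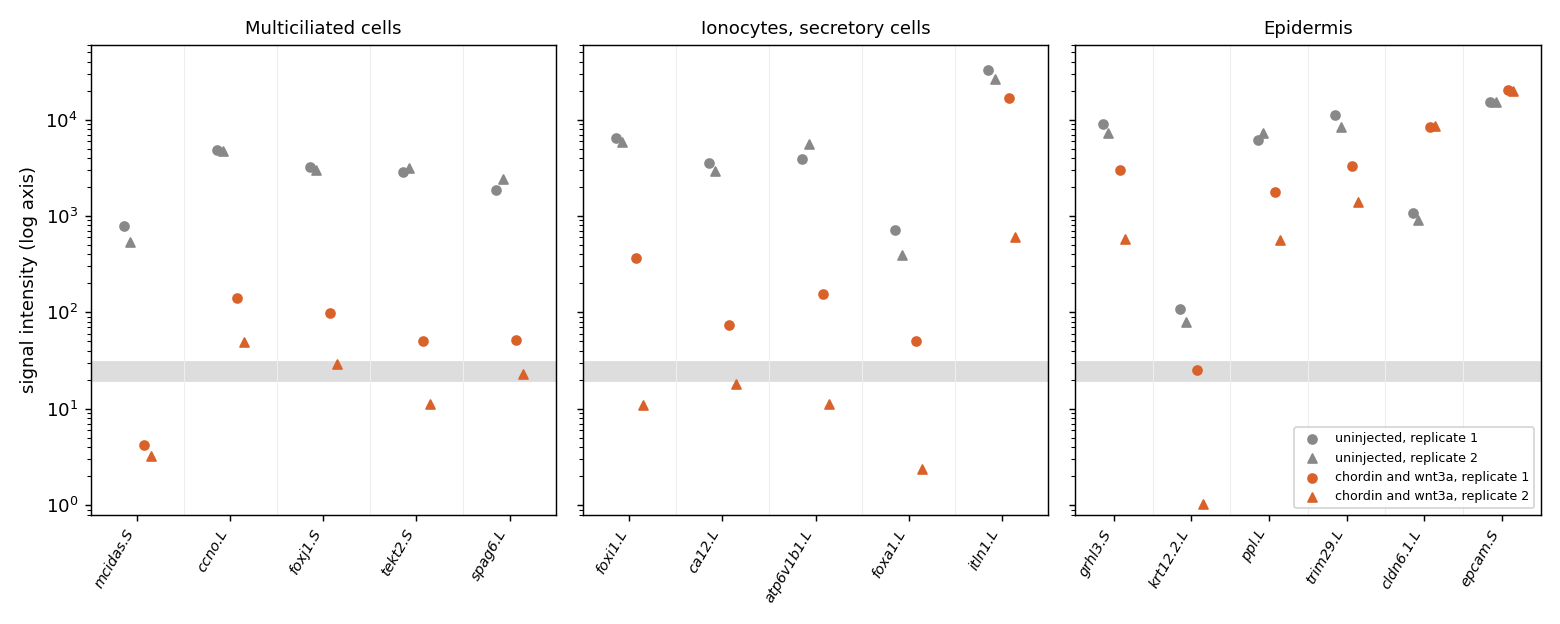
Signal intensity (log axis) of genes of multiciliated cells (left), ionocytes and secretory cells (middle) and epidermis (right) on the 2 uninjected and the 2 chordin and wnt3a arrays; circles are replicate 1, triangles replicate 2, and the grey band is the range of background. Multiciliated genes lie far below the uninjected arrays on both injected arrays, foxi1.L and itln1.L are lower on injected replicate 2 than on replicate 1, and cldn6.1.L is higher in injected caps.

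Genes of the epidermal sheet itself moved in both directions. Of 44 measured symbols 6 were higher and 16 lower, with a median log2 change of -0.98, and the lower count was 4 without U1 or U2 and 5 without W2 or under spike-in scaling. The factor klf5.S fell from 549 and 401 to 96.2 and 54.6 (log2 change -2.61 (SE 0.34), limma adjusted p = 0.00303) and trim29.L from 11073 and 8324 to 3335 and 1409.7 (limma adjusted p = 0.0116). The barrier regulator grhl3.S fell from 9048 and 7304 to 2993 and 579 (limma adjusted p = 0.0271). None overlapped between groups, and the calls of the last 2 ended without U1 for both (adjusted p = 0.071 to 0.12) and without U2 for grhl3.S (adjusted p = 0.0906). The tight junction gene cldn6.1.L went up instead, from 1065 and 918 to 8463 and 8541 (log2 change 3.1 (SE 0.15), limma adjusted p = 0.000115), as did the simple epithelial keratin krt18.1.S, from 873 and 433 to 13934 and 8013 (limma adjusted p = 0.00149). The larval keratin krt12.4.S was not called, at 31759 and 27384 in uninjected and 10613 and 857 in injected caps (limma adjusted p = 0.113). W1 again lay above W2. The keratin krt70.S was not called either (log2 change -0.27 (SE 0.13), limma adjusted p = 0.143), but was with the replicate block (adjusted p = 0.0178), and its change was 0.47 under spike-in scaling.

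BMP pathway genes and targets were called lower more often than higher. Of 49 measured symbols 25 were lower and 6 higher, with a median log2 change of -1.73, and -1.09 under spike-in scaling. The counts were 13 without U1 and 16 under spike-in scaling for lower calls and 10 under spike-in scaling for higher calls. Sizzled, a secreted feedback inhibitor of chordin-cleaving proteases that BMP signalling switches on, fell below background. Signals of szl.L were 6140.2 and 5065 in uninjected caps and 4.44 and 0.536 in injected caps, at least 197-fold lower (limma adjusted p = 0.0207), and those of szl.S were 1824 and 1735 and then 0.151 and 3.34, at least 63.1-fold lower (limma adjusted p = 0.00895). The calls ended without U1 for both (adjusted p = 0.0524 to 0.0934) and without U2, W1 or W2 or under spike-in scaling for szl.L (adjusted p = 0.0567 to 0.0957). The ligand gene bmp7.2.L fell from 7173 and 3326 to 222 and 118 (limma adjusted p = 0.00148), the factor tbx2.L from 974 and 754 to 37.1 and 17.7 (limma adjusted p = 0.00749) and gata3.S from 2208 and 1730.4 to 115 and 25.4 (limma adjusted p = 0.00773). The groups did not overlap for these, and the call of gata3.S ended without U1 (adjusted p = 0.0502).

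The 6 higher members included the BMP antagonists and the ligand bmp2. Signals of noggin, nog.L, rose from 14.7 and 20.9, below background, to 1195 and 895, at least 33.9-fold (limma adjusted p = 0.00053), and those of follistatin, fst.L, from 21.0 and 11.1 to 265 and 459, at least 11.5-fold (limma adjusted p = 0.00272). The ligand bmp2.S rose from 51.8 and 36.3 to 1055 and 1111 (log2 change 4.48 (SE 0.23), limma adjusted p = 0.00014) and bmp2.L from 16.0 and 28.9 to 346 and 292 (limma adjusted p = 0.00157). All 4 were free of overlap between groups. Chordin caps gave 307 and 331 for bmp2.S and 17.7 and 31.9 for bmp2.L.

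Wnt pathway genes and targets were called higher more often than lower. Of 39 measured symbols 20 were higher and 2 lower, with a median log2 change of 1.13, or 0.78 with 8 symbols at their bounds, and the higher count was 13 without U2. The target sp5.L rose from 35.0 and 35.2 to 5269 and 4863 (log2 change 6.97 (SE 0.19), limma adjusted p = 2.61e-05), and was at 46.7 and 46.7 in chordin caps. The feedback inhibitor axin2.L rose from 307 and 215 to 6179.7 and 5759 (log2 change 4.51 (SE 0.23), limma adjusted p = 0.000137), with 135 and 139.9 in chordin caps. For both, the chordin arrays lay far below the arrays with both messages. The ligand gene wnt8a.L rose from 17.4 and 29.0 to 2449 and 4151 (log2 change 6.84 (SE 0.51), limma adjusted p = 0.0005), and kremen2.S, a receptor of the Wnt inhibitor Dickkopf, from 0.380 and 0.472 to 491 and 699, at least 19.3-fold (limma adjusted p = 0.000281). The secreted activator rspo2.L rose from 1.52 and 12.8 to 543 and 272, at least 12.7-fold (limma adjusted p = 0.00545). These too did not overlap. The 2 lower members were the repressor tcf7l1.L, from 1175 and 1459 to 493 and 882 (limma adjusted p = 0.0355), and the ligand wnt7b.L, from 148 and 139.7 to 38.2 and 6.80 (limma adjusted p = 0.0172). Their calls ended without U1 or U2 for both (adjusted p = 0.0738 to 0.156), without W1, C1 or C2 or under spike-in scaling for tcf7l1.L (adjusted p = 0.055 to 0.677) and without W2 for wnt7b.L (adjusted p = 0.0592), and the lower count was 0 without U1 or U2 and 1 without C1, C2, W1 or W2. In the Wnt list 13 symbols were higher and 6 lower than in chordin caps, the higher count being 8 without W2.

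FGF pathway genes gave 10 higher and no lower calls among 21 measured symbols, with a median log2 change of 0.88. With chordin alone 16 were higher and 1 lower than in uninjected caps (19.1% and 12.9% of all symbols), with a median of 2.67. Both comparisons share the uninjected arrays. In the step from chordin caps 3 were higher and 9 lower, with a median of -0.86. The receptor fgfr4.L rose from 153 and 133 to 2331 and 2528 (log2 change 4.04 (SE 0.16), limma adjusted p = 6.86e-05), and flrt3.L, a membrane protein that acts with FGF receptors, from 26.5 and 60.01 to 1531 and 1709.7 (limma adjusted p = 0.000482). The factor mycn.S rose from 48.2 and 62.5 to 545 and 548 (limma adjusted p = 0.000649), and was at 1615 and 1424 in chordin caps. The groups did not overlap for any of them. The S copy of flrt3 was dim and not called, at 18.6 and 22.3 in uninjected caps and 38.2 and 31.4 with both messages (limma adjusted p = 0.192).

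Retinoic acid genes included some of the strongest rises. Of 14 measured symbols 5 were higher and 3 lower (21% and 16% of all symbols). The retinoic acid degrading enzyme cyp26c1.S went from 1.80 and 6.39 to 5965 and 10547, at least 259-fold (limma adjusted p = 0.0017), and its relative cyp26a1.L from 3.42 and 2.72 to 540.02 and 772, at least 21.2-fold (limma adjusted p = 0.000283). The binding protein gene crabp2.L rose from 17.6 and 34.0 to 1844 and 9956, unequal on the injected arrays but above both uninjected ones (log2 change 7.16 (SE 0.77), limma adjusted p = 0.00183). The reductase gene dhrs3.L fell from 543 and 499 to 93.9 and 101 (log2 change -2.36 (SE 0.30), limma adjusted p = 0.00287), and the receptor gene rxra.L from 281 and 238 to 75.0 and 59.6 (limma adjusted p = 0.00501), a call that ended under spike-in scaling (adjusted p = 0.0586). The higher count was 9 under spike-in scaling.

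Notch pathway genes split, with 5 of 17 higher and 2 lower, the higher count being 3 without W2, 8 with the replicate block and 9 under spike-in scaling and the lower count 0 without W2 or U1 and 1 without C1, C2 or U2. The target hes1.S rose from 82.3 and 108 to 1583 and 1361 (log2 change 3.89 (SE 0.18), limma adjusted p = 0.000107), and the ligand jag1.L from 90.9 and 129 to 693 and 803 (limma adjusted p = 0.00152). The ligand dll1.L fell from 1549.5 and 1236 to 235 and 143 (limma adjusted p = 0.0114), and its call ended without U1 or W2 (adjusted p = 0.0672). None of the 3 overlapped between groups. The brighter L copy of hes1 was not called, at 876 and 1002 in uninjected caps and 1177 and 938 with both messages, which overlap (log2 change 0.16 (SE 0.30), limma adjusted p = 0.707). Over all symbols 21% were higher and 16% lower.

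Genes of cell adhesion and of guidance were higher more often than lower. Of 38 measured adhesion and matrix symbols 15 were higher and 3 lower, and of 31 guidance symbols 13 were higher and 4 lower. The membrane protease mmp14.L rose from 2.57 and 21.0, below background, to 833 and 1128, at least 31.8-fold higher (limma adjusted p = 0.00159), and the mesenchymal filament vim.L from 693 and 779.8 to 5245 and 6166 (log2 change 2.94 (SE 0.20), limma adjusted p = 0.000374). The chemokine cxcl12.L fell from 379 and 592 to 78.5 and 20.7 (limma adjusted p = 0.0186) while ackr3.L, a receptor that takes that chemokine up, rose from 41.3 and 27.0 to 959 and 824 (limma adjusted p = 0.000627). No group overlapped in these 4, and the call of cxcl12.L ended without U1, U2 or W2 (adjusted p = 0.0674 to 0.0964). Among guidance genes, the semaphorin receptor nrp1.L rose from 0.993 and 1.47, below background, to 149.97 and 384, at least 8.02-fold higher (limma adjusted p = 0.00254), the ephrin receptor epha2.L from 341 and 405 to 3406 and 5319 (log2 change 3.50 (SE 0.25), limma adjusted p = 0.000387) and slit2.S, a repellent, from 395 and 428 to 2929 and 2563 (limma adjusted p = 0.00198). Ephrin efnb3.L fell from 3153 and 2555 to 1137 and 865 (limma adjusted p = 0.00479), a call that ended under spike-in scaling (adjusted p = 0.129). The lower counts were 0 without W2 or U1 and 1 under spike-in scaling in the first list and 0 under spike-in scaling and 1 without W2, U1 or U2 in the second.

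Cell cycle genes were more often higher than lower. Of 105 measured symbols 36 were higher and 6 were lower, with a median log2 change of 0.37. The higher count was 15 without W2, 17 without U1 and 21 without U2, and the lower count 0 under spike-in scaling, 2 without W2, U1 or U2 and 3 without W1. Genes of DNA replication were among them, with the helicase subunit mcm4.S going from 297 and 272 to 1157 and 1393 (log2 change 2.14 (SE 0.16), limma adjusted p = 0.000459), rpa2.S from 112 and 105 to 389 and 457 (limma adjusted p = 0.00123) and the sliding clamp pcna.L from 4072 and 2789 to 7831 and 9089 (limma adjusted p = 0.00394). Signals were higher still in chordin caps, at 2679 and 2717 for mcm4.S, 783 and 802 for rpa2.S and 14973 and 13765 for pcna.L. The cyclin ccna1.S fell from 1113 and 1596 to 36.3 and 23.1 (log2 change -5.29 (SE 1.13), limma adjusted p = 0.0143) and the kinase gene nek2.S from 3442 and 4258 to 1281 and 1363 (limma adjusted p = 0.0028). Those calls ended without U1, U2 or W2 for ccna1.S (adjusted p = 0.0633 to 0.0755) and under spike-in scaling for both (adjusted p = 0.0702 to 0.142).

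Of 59 mesoderm, muscle and blood symbols on the array 21 passed the filter on dim probe sets. Of these 4 were higher and 3 lower, beside 21% and 16% of all symbols. Those shares also stand beside the organizer and endoderm counts that follow. The array holds 22 organizer and 22 endoderm symbols, of which 10 and 6 passed the filter. Members silent in all injected groups passed only through the uninjected arrays, so lower calls partly reflect the filter. The 21 were mostly dim. The exception was the globin symbol hbg1.L, at 163 and 222 in uninjected, 291 and 236 in chordin and 14039 and 22989.9 in chordin and wnt3a caps (log2 change against uninjected 6.52 (SE 0.27), limma adjusted p = 8.60e-05). It made up most of the list's summed signal of 15892 and 24485. The actin actc1.L was 59.2 and 24.3 in injected caps and not called (limma adjusted p = 0.584), and the skeletal troponin tnni2.S fell from 677 and 498 to 77.6 and 50.5 (limma adjusted p = 0.00243). The counts were 2 without W2 or U1 and 7 under spike-in scaling for higher calls and 1 without W2, U1 or U2 for lower calls. Of 10 organizer symbols 2 were higher (1 without W1, U1 or U2) and 1 lower (0 without W2, U1 or U2 and 2 with the replicate block). The floor plate and notochord factor foxa2.L rose from 8.47 and 2.51 to 378 and 199.9, at least 9.14-fold (limma adjusted p = 0.00284). The organizer gene gsc.L stayed below background at 0.811 and 7.88. Of 6 endoderm symbols 4 were lower and none higher. The only member with a rise was cdx2.L, which also stands in the posterior list, and it was not called (limma adjusted p = 0.077). Signals of sox7.L fell from 940.2 and 647 to 181 and 33.7 (limma adjusted p = 0.0132). That call ended without U1 or U2 (adjusted p = 0.0506 to 0.077). The lower count was 0 without U1 and 2 without W2, and the higher count 1 without M1 or M2.

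Lists on the state of the cells held calls in both directions or few calls, beside 21% of all symbols higher and 16% lower. Of 22 p53 response symbols 7 were higher (2 without W2 or U2, 3 without U1, 4 without W1 and 11 under spike-in scaling) and 2 lower (0 under spike-in scaling and 1 without W2 or U1). Of 34 stress symbols 5 were higher (2 without W2 or U1, 3 without U2 and 8 under spike-in scaling) and 7 lower (0 without U1, 1 without W2, 2 without U2 or under spike-in scaling and 4 without C1, C2 or W1). Of 23 maternal and pluripotency symbols 1 was higher (0 without W1, W2, U1 or U2, 2 without M2 or with the replicate block and 3 under spike-in scaling) and 5 were lower (1 without U1, 2 without W2 or under spike-in scaling and 3 without U2). Of 21 housekeeping symbols 2 were higher (0 without W2, 1 without U1 or U2 and 6 under spike-in scaling) and none lower (2 with the replicate block). The stress-inducible haem oxygenase hmox1.L rose from 799 and 905 to 5259.6 and 4872 (log2 change 2.57 (SE 0.16), limma adjusted p = 0.000227), and sesn1.L, a p53 target, from 67.0 and 68.8 to 530.1 and 575 (limma adjusted p = 0.000935). The Oct4-related gene pou5f3.2.L fell from 733 and 347 to 101 and 97.9 (log2 change -2.28 (SE 0.41), limma adjusted p = 0.00763). No group overlapped for these 3. The medians of the stress and maternal lists, -0.17 and -0.34, were 0.57 and 0.38 under spike-in scaling, beside 0.81 over all symbols.

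**Figure D5:**
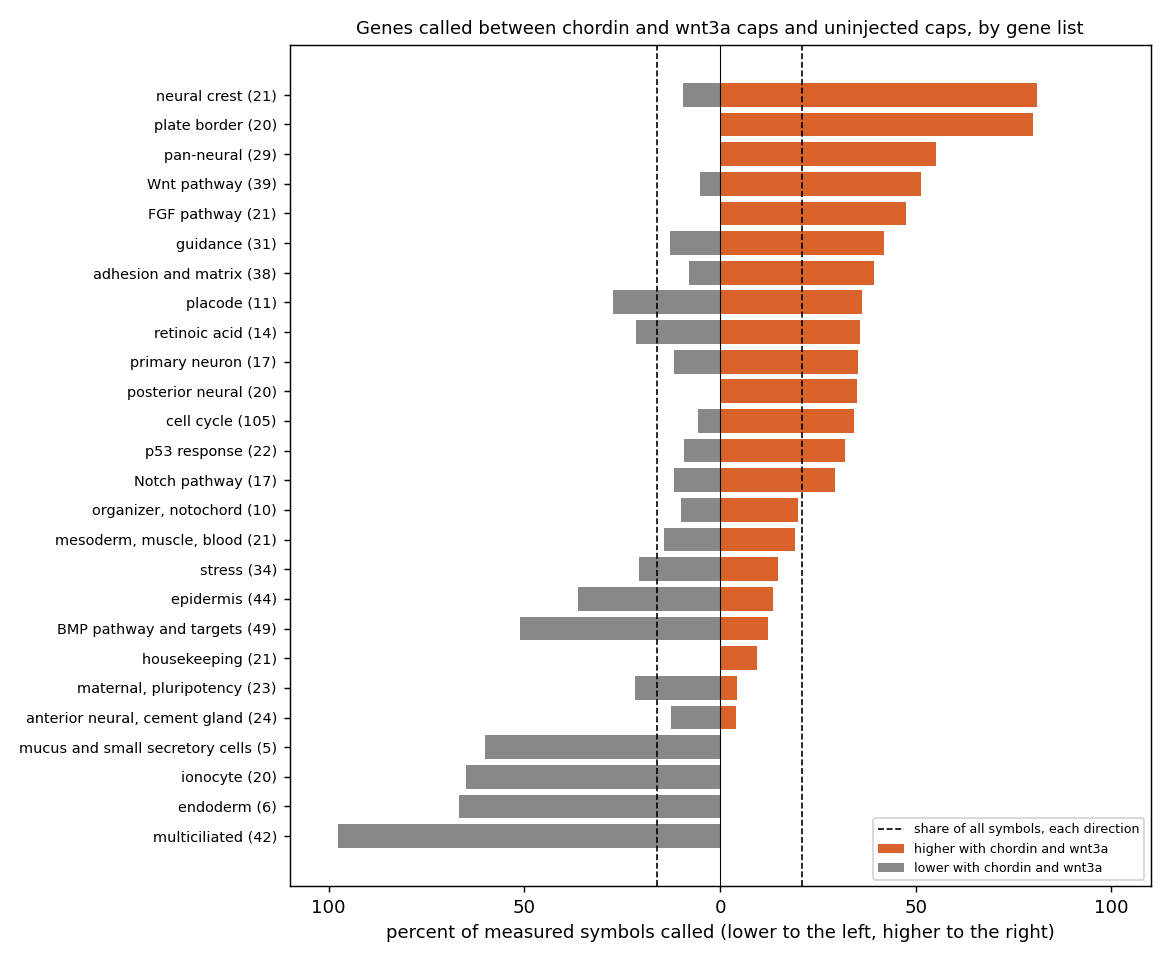
Percent of the measured symbols of each gene list (number in brackets) called higher (orange, to the right) or lower (grey, to the left) in chordin and wnt3a caps than in uninjected caps. The dashed lines mark the shares over all symbols, 21% higher and 16% lower; crest (17 of 21) and plate border (16 of 20) reach farthest to the right and multiciliated cells (41 of 42) farthest to the left.

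Among the 20 symbols with the largest called rises were genes outside these lists. The water and glycerol channel aqp3.L rose from 7.12 and 13.2 to 8376 and 8596, at least 277-fold (limma adjusted p = 2.61e-05), and xa-1.L from 2.89 and 18.3 to 11450.1 and 11410.2, at least 373-fold (limma adjusted p = 0.00339). The homeobox gene lmx1b.1.S rose from 25.7 and 4.78 to 2939 and 2746, at least 92.8-fold (limma adjusted p = 0.000626). None of the 3 had both uninjected arrays above background. The secreted metalloprotease mmp28.L rose from 4.27 and 2.36 to 989 and 1325, at least 37.5-fold (limma adjusted p = 0.000115), the secreted growth factor ptn.L from 51.6 and 47.6 to 4502 and 11224 (log2 change 7.02 (SE 0.39), limma adjusted p = 0.000193) and nradd.L, which encodes a death domain protein, from 1.85 and 16.2 to 1345 and 1764, at least 50.4-fold (limma adjusted p = 0.00272). In chordin caps ptn.L was at 5023 and 5924, within the range of caps with both messages, and aqp3.L at 1952 and 2836, below it.

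The 20 largest called falls included ciliary, ionocyte and BMP target genes described above. They also held the fatty acid elongase elovl2.L, from 1852 and 2376 to 33.4 and 20.5 (limma adjusted p = 0.0223), the adenylate kinase ak1.L, from 1361 and 1631 to 39.1 and 3.50 (limma adjusted p = 0.0206), and the homeobox gene nkx2-3.L, from 1216 and 2142 to 25.3 and 2.82 (limma adjusted p = 0.0331). W1 and W2 lay far below U1 and U2 for all 3. Their calls ended without U1, U2 or W2 or under spike-in scaling for all 3 (adjusted p = 0.0835 to 0.154), without W1 for elovl2.L and nkx2-3.L (adjusted p = 0.0586 to 0.0589) and without C1 or C2 for nkx2-3.L (adjusted p = 0.0568 to 0.0573).

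The genome of Xenopus laevis holds many genes as L and S copies on homeologous chromosomes. Of 1504 pairs with both copies measured, 176 were called higher in both copies, 117 lower in both, 504 in 1 copy only, 16 in opposite directions and 691 in neither. Across these pairs the log2 changes of the copies correlated at 0.731 (Pearson) and 0.634 (Spearman), and the median absolute difference was 0.42, with 78 pairs differing by more than 2. Pairs are not independent replicates, the copies share arrays, and a probe set of one copy may bind the message of the other.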

How the data were processed

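RNA of Xenopus laevis animal caps was read on 8 Affymetrix arrays, 2 for each of 4 treatments. Per the labels' protocols, total RNA was amplified to biotin-labelled RNA by 3' in vitro transcription. The deposited values are signal intensities of 32635 probe sets on a linear scale, made with MAS5, per the submitters' processing notes; their trimmed means are equal across arrays, and their version and scaling target are not given in the sources used here. Precision is limited by the number of arrays, and the median standard error of a log2 change was 0.29.

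Log2(signal + 5.22) was fitted, where 5.22 is the 10th percentile of signal over all 32635 probe sets, controls included. Only the 32539 probe sets that are not controls entered the filter. Probe sets above the 40th percentile on at least 2 arrays were kept (22009). A model with 4 group means over all 8 arrays (limma 3.58.1 in R 4.3.3, eBayes with trend and robust) gave p-values, which were adjusted over all kept probe sets by Benjamini-Hochberg and called under 0.05. The chordin and wnt3a group was compared with the uninjected group and, as a step, with the chordin group. The fit was tested on simulated data. Symbols came from the platform annotation, which names 1 gene for 15495 probe sets, several for 279 and none for 16765; 15384 matched RefSeq. The brightest probe set stood for a symbol, so 8824 symbols were tested. In 11 of 1920 symbols with several probe sets, probe sets were called in opposite directions.

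Treatment groups and replicate numbers came from the labels. Arrays with the same number were taken as paired, since their deviations from the group means had correlations between 0.171 and 0.505 over the 6 group pairs; the counts under the block were known when this was checked, and the main fit has no block. Named genes are the injected and targeted genes, in each list up to 6 called in each direction and up to 2 uncalled with the largest changes, the 20 largest called changes in each direction, their L or S copies, and cell type markers; the text gives a selection of these, and says where a gene was chosen otherwise. The comparison and its gene lists were chosen with earlier results of these data known. The bound at background was chosen after values were seen. Alternatives were the pseudocount, the filter, quantile normalization, scaling to poly-A spike-ins, plain moderation, the replicate block, a fit of only the groups compared, the mean over probe sets, and leaving out each array.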

Additional observations from a re-analysis of the deposited data

How the results depend on the processing

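These calls rest on 2 arrays a group and on a scaling that assumes a common mean. Of 116 called genes named in the text, 28 lost their call in 1 or more fits that left out an array: 27 without U1, 21 without W2, 20 without U2, 9 without W1, and at most 5 without each other array. Of the same genes 16 lost it under spike-in scaling, 6 with no filter on dim probe sets, 5 in the fit of only the groups compared, and at most 3 under each of the other changes of pseudocount, filter, moderation, normalization or replicate block. Under spike-in scaling 6899 probe sets were higher and 1079 lower than in uninjected caps, and the changes of dlx5.L (0.087), krt70.S (0.47), pax3.L (0.72), sox3.S (0.32) and tyrp1.L (0.20) turned positive. Leaving out 1 array moved the changes of hoxc8.S between -0.71 (without W1) and 2.42 (without W2) and of hoxd10.L between -0.75 and 2.35; the negative values rest on W2 signals below background and give no direction. It moved that of sox3.S between -1.17 (without W2) and 0.34 (without W1), and that of pax3.L between -0.27 (without U1) and 0.25 (without U2). The replicate block, which takes the replicate number as a pairing of arrays, gave 5717 higher and 4084 lower probe sets against uninjected caps, and 1079 and 952 in the step from chordin caps. Leaving out 1 array at a time gave 1733 to 4072 higher and 1100 to 3346 lower probe sets against uninjected caps, and 255 to 721 higher and 194 to 640 lower ones in the step. Dim genes are limited by background, since a signal below it gives only a bound. Under spike-in scaling the lists gave higher calls of 2 for forebrain and cement gland, 10 for BMP, 9 for retinoic acid, 9 for Notch, 7 for mesoderm, 11 for p53 response, 8 for stress, 3 for maternal and 6 for housekeeping and lower calls of 16 for BMP, 5 for epidermis, 26 for multiciliated cells, 2 for ionocytes, 0 for p53 response, 2 for stress, 0 for cell cycle, 2 for maternal, 1 for adhesion and 0 for guidance. With the replicate block the lists gave higher calls of 8 for Notch and 2 for maternal and lower calls of 5 for forebrain and cement gland, 2 for organizer and 2 for housekeeping. With the fit limited to the groups compared the lists gave higher calls of 11 for posterior and 1 for endoderm and lower calls of 1 for neurons and 4 for stress. With the filter at the 60th percentile the lists gave higher calls of 2 for mesoderm and 1 for organizer and lower calls of 1 for neurons, 1 for Wnt, 1 for endoderm and 3 for maternal. With plain eBayes moderation the lists gave higher calls of 0 for maternal and 1 for housekeeping and lower calls of 1 for Wnt and 1 for Notch. With no filter on dim probe sets the lists gave lower calls of 1 for Notch and 8 for ionocytes. With the 25th percentile as pseudocount the lists gave lower calls of 1 for Notch. After quantile normalization the lists gave lower calls of 1 for Notch. With the mean over probe sets of a symbol the lists gave lower calls of 4 for Wnt. Leaving out each of the 8 arrays in turn, higher calls ranged from 9 to 16 for plate border, 2 to 4 for placode, 3 to 6 for neurons, 0 to 1 for forebrain and cement gland, 4 to 11 for posterior, 13 to 21 for Wnt, 3 to 5 for Notch, 2 to 4 for mesoderm, 1 to 2 for organizer, 0 to 1 for endoderm, 2 to 7 for p53 response, 2 to 5 for stress, 15 to 36 for cell cycle, 0 to 2 for maternal and 0 to 2 for housekeeping, and lower calls from 0 to 2 for pan-neural, 0 to 2 for neurons, 1 to 5 for forebrain and cement gland, 0 to 3 for Wnt, 13 to 30 for BMP, 0 to 2 for Notch, 4 to 22 for epidermis, 1 to 4 for secretory cells, 21 to 42 for multiciliated cells, 1 to 16 for ionocytes, 1 to 3 for mesoderm, 0 to 1 for organizer, 0 to 3 for endoderm, 1 to 3 for p53 response, 0 to 5 for stress, 2 to 5 for cell cycle, 1 to 5 for maternal, 0 to 3 for adhesion and 1 to 4 for guidance.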
